A study of Mus musculus with 4 samples.

Results

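The Hox genes of the mouse encode homeodomain transcription factors and lie in 4 clusters, Hoxa, Hoxb, Hoxc and Hoxd. The open chromatin of these clusters was described across 4 cell populations mapped by ATAC-seq, where a transposase cuts accessible DNA and tags it for sequencing. The peaks described are those of 4 deposited peak lists that lie over the 38 member genes, between them, or within 20 kb beyond the outer member on each side, on GRCm38 (mm10). The 4 windows are chr6:52142417-52280880 for Hoxa, chr11:96174316-96388254 for Hoxb, chr15:102901131-103056856 for Hoxc and chr2:74648225-74785142 for Hoxd. They held 185 of the 157212 MEF peaks and 77 of the 133235 peaks of the intermediate, beside 79 of 132875 for iPSC and 125 of 129533 for ESC. Merged across lists where at least 1 bp was shared, they gave 189 of the 256632 regions found on the autosomes and the X chromosome, with 62 in Hoxa, 54 in Hoxb, 34 in Hoxc and 39 in Hoxd.

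Each population is 1 library. MEF are mouse embryonic fibroblasts of strain A12 (Mbd3 flox/-), and the iPSC, induced pluripotent stem cells, carry the same strain label. ESC are the v6.5 line of embryonic stem cells. The intermediate came from Nanog-CreER reporter fibroblasts of strain B6/129 with Rosa26-TdTomato from a B6 female and Col1a-OSKM from a 129 male. Doxycycline, which switches on Oct4, Sox2, Klf4 and Myc (OSKM), and 4-hydroxytamoxifen (4OHT), which activates the Cre, were added on day 1 and kept until day 9, together with 0.5 µM of an inhibitor of the kinase JAK1. Cells that had turned on tdTomato were sorted, so the values describe cells in which the Nanog-driven Cre had acted. The title of that sample gives day 9, its source field gives day 6, and the route was meant to lead to neural stem cells. Its description states that no MEF feeders were present, and the labels of iPSC and ESC do not say whether feeders were used. Strain, sort and cell type differ together between the intermediate and each other library and cannot be told apart.

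In vertebrates the order of Hox genes along a cluster follows the order of their expression along the body axis. Genes at the 3′ end are used in anterior structures and early, those at the 5′ end in posterior structures and later. Fibroblasts keep a record of their position in the body in the Hox genes that they express, while in embryonic stem cells the clusters are mostly silent and carry both Polycomb marks and marks of active promoters. Members with the same number in different clusters are paralogs, and here groups 1 to 3 are called anterior (7 members), groups 4 to 8 central (15) and groups 9 to 13 posterior (16). Accessibility is not expression, and no RNA was used here.

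A member is called open in a library if a listed peak lies within 1 kb of its RefSeq start site, and closed if none does. A closed site has no listed peak, which is no measurement that its chromatin is inaccessible. Height is the whole-number signal that the authors' processing gave each peak. It is not scaled to sequencing depth, which is unknown, so heights set side by side describe each list and do not measure a difference. Where 4 heights follow each other they are in the order MEF, intermediate, iPSC, ESC. A member open in MEF and closed in the intermediate is called lost, and the opposite is called gained. With 1 library per group nothing was tested or checked against replicates, and the Wilson 95% intervals cover counting error over genes or regions only.

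The promoters of members whose state changed or held are shown first, from 250 bases before to 50 after the RefSeq start site (GRCm38.p6), 5′ to 3′ on the gene's strand. They are the 4 members gained in the intermediate, 2 of those lost and 1 open in all 4 libraries. Capitals mark matches to 6 motifs searched on both strands: the box named after its letters TATAAA, the CCAAT box, the GC box with letters GGGCGG, the joint site of HOX and PBX proteins with letters TGATTNAT, the direct repeat bound by retinoic acid receptors and the core of the CTCF site.
Hoxa2, chr6:52164782-52165081, minus strand: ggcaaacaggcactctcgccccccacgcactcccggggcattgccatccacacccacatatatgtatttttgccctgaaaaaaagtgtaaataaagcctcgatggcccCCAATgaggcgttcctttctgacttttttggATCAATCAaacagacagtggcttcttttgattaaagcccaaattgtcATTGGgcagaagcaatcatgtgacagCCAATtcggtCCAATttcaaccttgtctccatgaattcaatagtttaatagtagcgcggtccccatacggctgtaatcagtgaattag
Hoxb1, chr11:96365508-96365807, plus strand: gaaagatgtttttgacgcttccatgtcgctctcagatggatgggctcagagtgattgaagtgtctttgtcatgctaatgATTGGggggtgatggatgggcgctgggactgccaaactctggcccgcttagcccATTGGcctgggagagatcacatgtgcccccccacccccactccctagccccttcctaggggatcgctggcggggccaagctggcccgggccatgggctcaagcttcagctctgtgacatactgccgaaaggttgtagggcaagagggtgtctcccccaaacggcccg
Hoxc4, chr15:103034145-103034444, plus strand: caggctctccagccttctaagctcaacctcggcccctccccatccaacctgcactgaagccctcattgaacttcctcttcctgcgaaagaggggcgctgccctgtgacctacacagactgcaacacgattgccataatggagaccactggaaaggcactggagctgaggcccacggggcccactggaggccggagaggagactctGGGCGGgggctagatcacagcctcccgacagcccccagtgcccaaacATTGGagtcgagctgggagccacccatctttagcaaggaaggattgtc
Hoxd1, chr2:74762730-74763029, plus strand: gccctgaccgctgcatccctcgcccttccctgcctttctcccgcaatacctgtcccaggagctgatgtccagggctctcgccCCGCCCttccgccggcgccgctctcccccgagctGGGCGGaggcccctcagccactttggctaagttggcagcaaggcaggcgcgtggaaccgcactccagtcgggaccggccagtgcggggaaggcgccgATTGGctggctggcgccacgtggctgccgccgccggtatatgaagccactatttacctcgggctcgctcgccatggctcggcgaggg
Hoxa5, chr6:52204538-52204837, minus strand: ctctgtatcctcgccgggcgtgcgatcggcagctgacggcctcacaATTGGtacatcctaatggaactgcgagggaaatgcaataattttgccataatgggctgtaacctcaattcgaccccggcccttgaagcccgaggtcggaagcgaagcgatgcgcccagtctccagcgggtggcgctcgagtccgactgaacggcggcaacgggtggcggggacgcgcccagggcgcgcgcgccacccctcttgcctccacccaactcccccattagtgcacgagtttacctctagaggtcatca
Hoxd10, chr2:74691641-74691940, plus strand: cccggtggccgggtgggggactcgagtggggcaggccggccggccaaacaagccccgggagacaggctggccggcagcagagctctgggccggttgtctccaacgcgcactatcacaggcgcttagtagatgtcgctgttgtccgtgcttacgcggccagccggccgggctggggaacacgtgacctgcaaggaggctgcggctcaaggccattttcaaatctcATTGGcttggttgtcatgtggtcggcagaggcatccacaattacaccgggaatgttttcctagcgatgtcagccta
Hoxd13, chr2:74667975-74668274, plus strand: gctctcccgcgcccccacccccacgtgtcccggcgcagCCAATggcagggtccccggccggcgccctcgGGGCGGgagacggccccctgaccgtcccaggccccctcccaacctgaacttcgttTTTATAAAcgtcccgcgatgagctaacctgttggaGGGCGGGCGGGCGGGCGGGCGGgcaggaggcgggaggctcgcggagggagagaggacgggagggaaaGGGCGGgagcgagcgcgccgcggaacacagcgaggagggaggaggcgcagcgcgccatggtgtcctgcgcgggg

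The promoter of Hoxd13 holds 7 overlapping or single GC boxes and 37 CG dinucleotides, and that of Hoxa2 holds 4 CCAAT boxes, 1 HOX-PBX match and 9 CG. By the same rule Hoxb2 and Hoxc9 (lost) and Hoxa4, Hoxb9 and Hoxc13 (open in all 4) would have been shown. Over the 24 promoters of 22 members in the table, CCAAT was present in 15 (62.5%, against 37.6% of 32619 promoters of the table). GC boxes were in 10 (41.7%, against 35.9%), TATA boxes in 4 (16.7%, against 13.7%) and HOX-PBX matches in 2, Hoxa2 and Hoxd11 (8.33%, against 3.24%). Neither the retinoic acid repeat (0.0092% of all promoters) nor the CTCF core (1.29%) was found in these 24 promoters. The median promoter of a member held 14.5 CG, against 7 for the table, and its GC content was 57.7%, against 53%. A match describes letters only.

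Start sites of 27 of the 38 members were open in MEF (71.1%, 55.2 to 83.0%) and 26 in ESC (68.4%, 52.5 to 80.9%). The intermediate had 17 open (44.7%, 30.1 to 60.3%) and iPSC 16 (42.1%, 27.9 to 57.8%). The same share over 17274 protein-coding genes was 63.9% in MEF, 62.3% in the intermediate, 65.4% for iPSC and 67% for ESC. For all 38 members the upper bound lay below the share of all genes in the intermediate and iPSC, and the intervals in MEF and ESC held it. The background, however, has start sites from the promoter table only. Among the 22 members it lists, the intermediate had 10 open (45.5%, 26.9 to 65.3%), and these bounds enclose the share of all genes. In iPSC it was 8 (36.4%, 19.7 to 57.0%), and both bounds lie below that share. Promoters rich in CG were open almost throughout. Among genes whose promoter held at least 17.5 CG, the median of the members' richest promoters, 94.5%, 92.9%, 96.2% and 98.8% were open. The plot of start-site shares also gives 46 other homeobox genes, of which 33, 29, 39 and 43 were open.

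**Figure D1:**
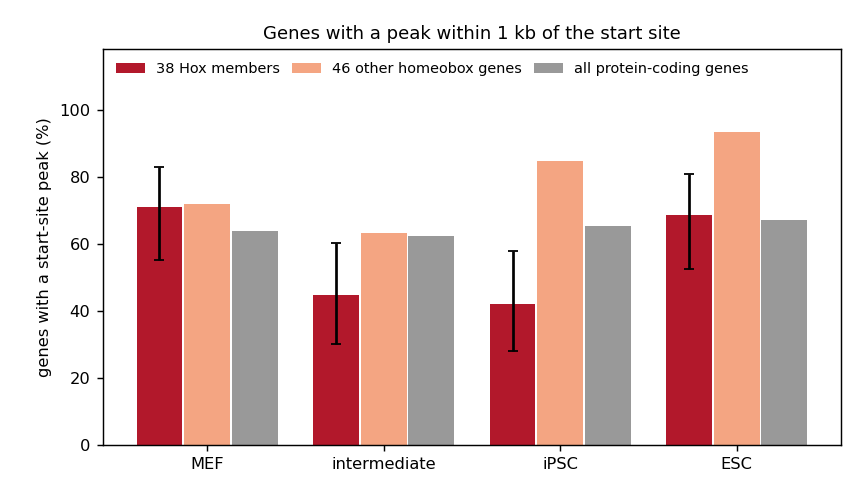
Share of genes with a listed peak within 1 kb of the start site (%) in each library, for the 38 Hox members (with Wilson 95% intervals over genes), 46 other homeobox genes and all protein-coding genes. The Hox bars are lowest in the intermediate (44.7%) and iPSC (42.1%), while all genes stay between 62.3% and 67%.

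Of the 38 members, 14 were lost between MEF and the intermediate and 4 were gained, 13 were open in both and 7 in neither. Lost members made up 36.8% of the members, against 6.22% of protein-coding genes, and gained ones 10.5%, against 4.59%. Of the 27 open in MEF, 51.9% (34.0 to 69.3%) were lost, against 9.74% of the 11041 genes open there. Member peaks were low in MEF, with a median height of 40 against 108 for all open genes, and low peaks were lost more often in general. Among the 3015 genes with a MEF height in the members' range of 27 to 69, 26.7% were lost. Their median MEF height was 47, and the part of height in the members' loss was not tested. The 14 lost members had MEF heights of 27 to 57 (median 35) and the 13 kept members 29 to 69 (median 47), so the groups overlap.

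**Figure D2:**
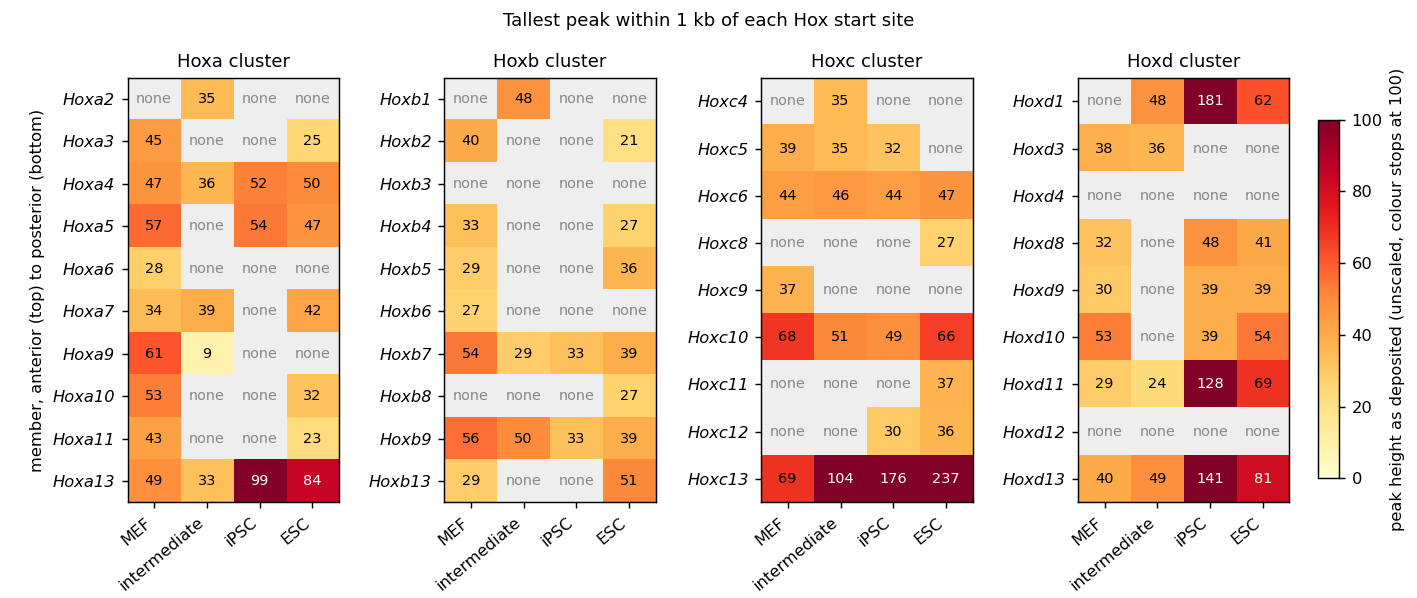
Height of the tallest peak within 1 kb of each member's start site, as deposited and unscaled, with members in rows from anterior to posterior and libraries in columns. Grey cells have no listed peak, and the colour stops at 100. Hoxc13, Hoxd13 and Hoxd1 reach the greatest heights, and the column of the intermediate is empty for Hoxa10, Hoxa11 and Hoxd8 to Hoxd10.

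Among the anterior members, whose products pattern the hindbrain and the upper trunk, 2 were lost and 3 gained. Hoxa3, needed for the thymus and other pharyngeal organs, had a height of 45 in MEF and 25 in ESC, and the intermediate and iPSC had no peak. Hoxb2, a hindbrain gene, had 40 in MEF and 21 in ESC and no peak in the intermediate or iPSC. By the 1 kb window both were thus open in fibroblasts and ESC alone. A merged region that reached to 0.807 kb from the Hoxa3 start, chr6:52211221-52212260, was open in MEF, ESC and also iPSC (38). Its iPSC peak lay outside the window. Hoxa2, which gives the second pharyngeal arch its identity, had a peak of 35 in the intermediate and none in the other libraries. Hoxb1, which specifies the fourth hindbrain segment, had a peak of 48 in the intermediate alone. At both genes the peaks missed the promoter shown above: the nearest began 0.69 kb from the start site of Hoxa2 and 0.503 kb from that of Hoxb1, and 0 of the 300 bases were covered. Hoxd1 had no peak in MEF, 48 in the intermediate, 62 in ESC and 181 in iPSC, and in these 3 libraries the peak covered the whole promoter. Among the members that were gained, Hoxd1 alone was also open in pluripotent cells. Hoxd3 had 38 in MEF and 36 in the intermediate and no peak in iPSC or ESC, and Hoxb3 had no start-site peak in any library.

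Of the 15 central members 6 were lost and 1 was gained. Hoxa5, which acts in lung and skeletal development, had heights of 57, none, 54 and 47. Its peaks covered all 300 promoter bases in MEF and ESC, 253 in iPSC and 0 in the intermediate. The intermediate therefore stood apart from the fibroblasts and from both pluripotent lines at this gene. Hoxd8 was open in the same 3 libraries, with 32, none, 48 and 41. Hoxb4 (33 in MEF, 27 in ESC) and Hoxb5 (29 and 36) were closed in the intermediate and iPSC. Hoxa6 (28) and Hoxb6 (27) were open in MEF alone, with the lowest MEF heights among all members. Hoxc4 was gained, with 35 in the intermediate and none elsewhere, and its peaks covered 291 of 300 promoter bases. The other central members kept their state. Hoxa4 had 47, 36, 52 and 50 in MEF, the intermediate, iPSC and ESC, Hoxb7 had 54, 29, 33 and 39, and Hoxc6 had 44, 46, 44 and 47. These 3 were open in all 4 libraries, though with a start-site window of 250 bp Hoxb7 and Hoxc6 were lost in the intermediate. Hoxa7 had 34, 39, none and 42, and Hoxc5 had 39, 35, 32 and none. Hoxb8 and Hoxc8 were open in ESC alone, each at 27, and Hoxd4 in no library.

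Of the 16 posterior members 6 were lost and none was gained. Hoxa10 and Hoxa11, used in the limb and the reproductive tract, had 53 and 43 in MEF, 32 and 23 in ESC, and no peak in the intermediate or iPSC. Hoxd9 had 30, none, 39 and 39. Hoxd10 had 53, none, 39 and 54, with the promoter fully covered in the 3 libraries where it was open. Hoxb13, known from the tail bud and the prostate, had 29 in MEF and 51 in ESC, and Hoxc9 had 37 in MEF alone. Hoxa9 was counted as kept, with 61 in MEF, but its peak in the intermediate had a height of 9, and iPSC and ESC had none. With heights under 10 left out it would be the 15th lost member. The merged region at Hoxa9, chr6:52224781-52226920, was however open in all 4 libraries, with heights of 61, 37, 44 and 29. Its taller peak in the intermediate and its peaks in iPSC and ESC lay more than 1 kb from the start site. The state of Hoxa9 thus holds for the 1 kb window only. Hoxc11 was open in ESC alone (37), Hoxc12 in iPSC (30) and ESC (36), and Hoxd12 in no library.

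The outermost posterior members were open in most libraries. In paralog group 13, 4 of 4 members were open in MEF and ESC and 3 of 4 in the intermediate and iPSC. Hoxc13, a gene of hair and nail development, had heights of 69, 104, 176 and 237, the tallest of any member in every library but iPSC, where Hoxd1 reached 181. Within its own list that height stood at the 85.1st percentile in MEF and the 99.1st in ESC. Hoxd13, which shapes the digits, had 40, 49, 141 and 81, and Hoxa13 had 49, 33, 99 and 84. Hoxd11 had 29, 24, 128 and 69. These 4, with Hoxa4, Hoxb7, Hoxb9 (56, 50, 33 and 39), Hoxc6 and Hoxc10 (68, 51, 49 and 66), are the 9 members open in all 4 libraries.

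Members were grouped by their open or closed state over the 4 libraries. The 7 members open in MEF and ESC alone were Hoxa3, Hoxa10, Hoxa11, Hoxb2, Hoxb4, Hoxb5 and Hoxb13, all in Hoxa and Hoxb. The 4 open in every library but the intermediate were Hoxa5, Hoxd8, Hoxd9 and Hoxd10. Of the 14 lost members 11 were open in ESC and 4 in iPSC, and 3 (Hoxa6, Hoxb6 and Hoxc9) were closed in both. Loss was therefore not limited to start sites that pluripotent cells lack. Of 13 members open in MEF, iPSC and ESC, 4 were lost, against 5.00% of 10102 protein-coding genes with that pattern. Of 21 open in MEF and ESC, 11 were lost, against 6.20% of 10481 genes. Neither share of genes was limited to the members' range of MEF heights, and low peaks were lost more often in general. ESC and iPSC also differed: 11 members were open in ESC alone of these 2, and 1, Hoxc5, in iPSC alone. The strain labels also differ between ESC and iPSC, and their part in this was not tested.

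By cluster, Hoxa had 9, 5, 3 and 7 of 10 members open in MEF, the intermediate, iPSC and ESC. Hoxb had 7, 3, 2 and 7 of 10, Hoxc 5, 5, 5 and 6 of 9, and Hoxd 6, 4, 6 and 6 of 9. Hoxa and Hoxb lost 5 members each in the intermediate, Hoxd 3 and Hoxc 1, and each cluster gained 1. The fewest open members in iPSC were in Hoxa and Hoxb. Intervals are wide at this number of genes, for example 23.7 to 76.3% for Hoxa in the intermediate against 59.6 to 98.2% in MEF, so that the order of the clusters was not resolved. Anterior members were open in 3, 4, 1 and 3 of 7, central in 11, 6, 6 and 10 of 15 and posterior in 13, 7, 9 and 13 of 16. The posterior share exceeded the anterior share by 38.4 percentage points in MEF, 42.0 in iPSC and 38.4 in ESC and lay 13.4 points below it in the intermediate. Each of these intervals spans 0 (for MEF -1.84 to 68.0, for the intermediate -47.4 to 26.1), so no difference between anterior and posterior was shown. With a start-site window of 250 bp the difference in the intermediate was 8.93 points the other way. The start sites used for Hoxa3, Hoxb3, Hoxb6 and Hoxd3 are the outer ends of long gene bodies. Those of Hoxb8, Hoxc4 and Hoxd10 lie inside the gene bodies, so the state of each of these members holds for that start site only. In the body of Hoxb6, called lost, a region at chr11:96298871-96299910 was open in MEF (26) and the intermediate (28).

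Peaks covered 77.9 kb of the 4 windows in MEF (12.1% of their bases), 60.5 kb in ESC (9.39%), 41.5 kb in iPSC (6.44%) and 32.5 kb in the intermediate (5.04%). Over protein-coding genes with 20 kb on both sides of each gene the shares were 4.15%, 3.59%, 3.63% and 3.66% in the same libraries. The windows were denser in peaks than this background, by the largest margin in MEF. They have flanks only beyond the outer members, so the background is not matched to them in genes per kb. The part of gene density in the difference was not tested. Hoxa had 36.2 kb covered in MEF and 11.9, 10.1 and 16.4 kb in the intermediate, iPSC and ESC. In Hoxb these values were 19.4, 5.09, 4.03 and 14.1 kb, and in Hoxc 9.01, 9.09, 7.86 and 13.2 kb. In Hoxd they were 13.3, 6.44, 19.5 and 16.9 kb, so that it was the cluster with the most covered bases in iPSC, while Hoxa led in MEF. Hoxc was covered to nearly the same extent in MEF and the intermediate.

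**Figure D3:**
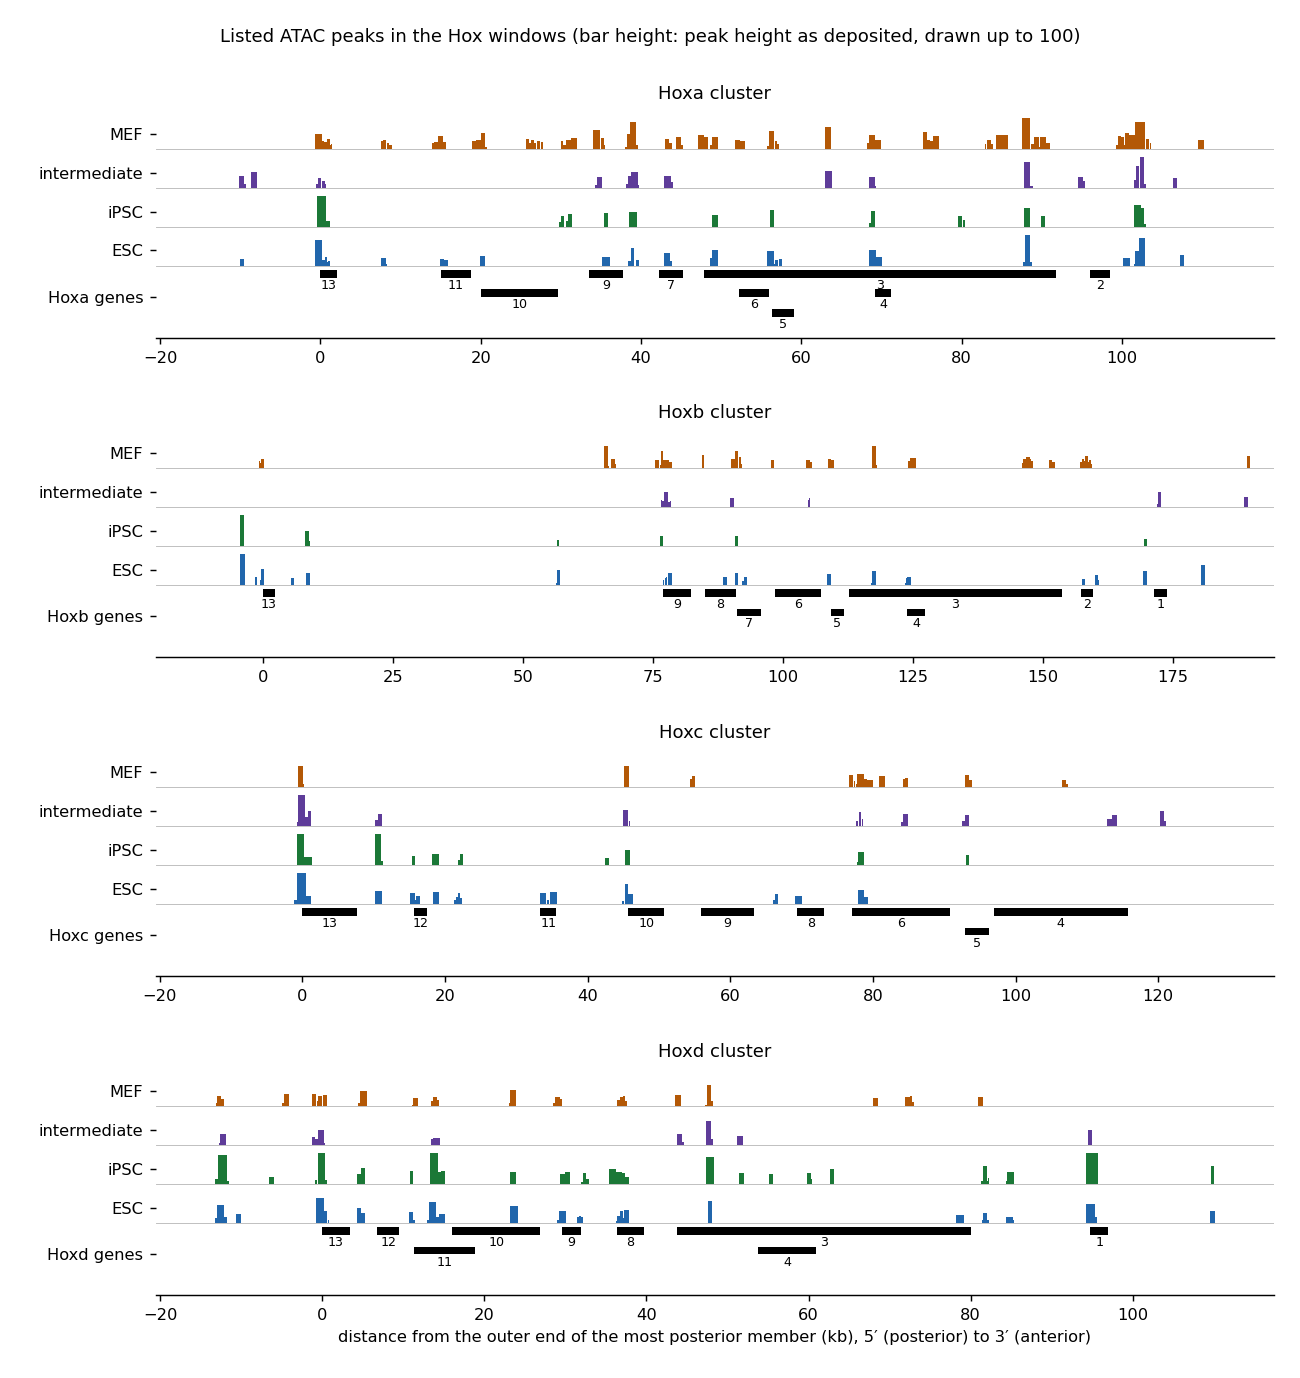
Listed peaks of each library along the 4 Hox windows, in kb from the outer end of the most posterior member, with bar height giving the peak height as deposited up to 100 and black bars the member genes by paralog number. MEF peaks are densest across Hoxa, and the intermediate has few peaks between Hoxb13 and Hoxb9 or across Hoxd8 to Hoxd10.

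Each base between the outer members was assigned to the nearest start site of a member and thus to a class. In MEF 18.4% of anterior, 15.0% of central and 11.0% of posterior bases were covered. The intermediate had 5.27%, 6.31% and 3.74%, iPSC 7.35%, 5.57% and 8.27%, and ESC 10.8%, 8.19% and 11.6%. The clusters did not share one order. In MEF the posterior part of Hoxd was covered to 15.6% against 7.47% of its anterior part, whereas in Hoxb the shares were 6.17% and 15.4%. Hoxc has no anterior member, and its central and posterior bases were covered to 12.4% and 2.83% in MEF and to 5.81% and 14.4% in ESC. Anterior Hoxa reached 40.6% in MEF, more than any other class and cluster, and 9.29% in the intermediate. For iPSC and ESC the difference between posterior and anterior (0.916 and 0.794 points) turned with the peaks used, to -0.482 for the taller peaks in iPSC and -0.148 for peaks of 500 bp in ESC.

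**Figure D4:**
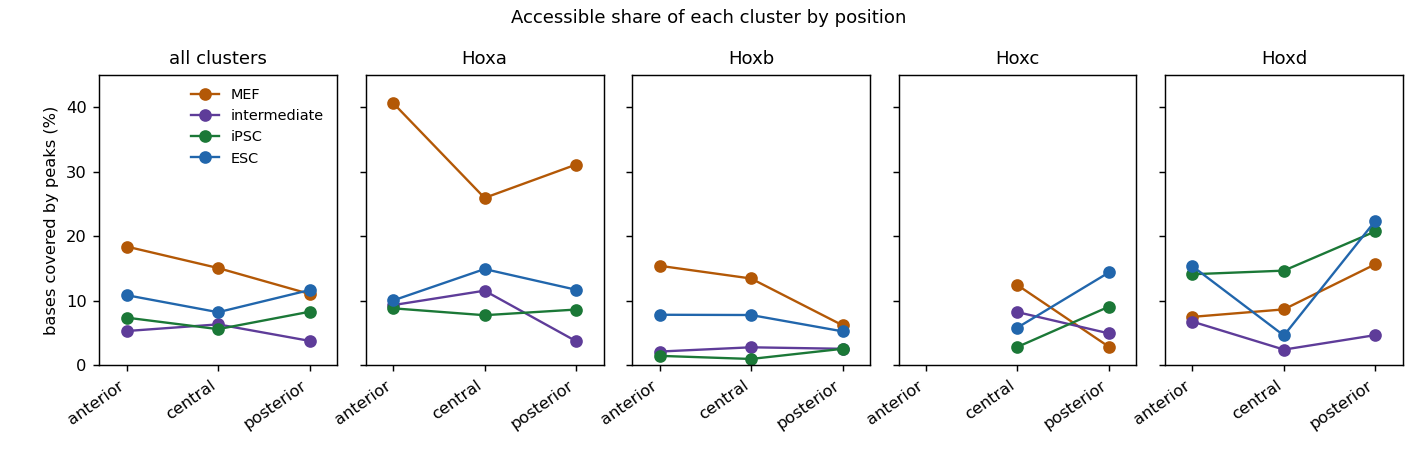
Share of bases covered by peaks (%) in the anterior, central and posterior parts of all clusters together and of each cluster, with a line per library. Hoxa in MEF stands highest (40.6% anterior), and in Hoxc the MEF line goes down toward the posterior part while the ESC line goes up.

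Of the 189 regions 120 were open in MEF, 41 in the intermediate, 75 in ESC and 51 in iPSC. Between MEF and the intermediate 98 were lost (51.9%, against 35.8% of all regions) and 19 gained (10.1%, against 25.1%). Relative to the regions open in MEF, 81.7% (73.8 to 87.6%) were lost in the windows and 78.3% over the genome, which is within the interval. The lists divide accessible stretches into sub-peaks 10 bp apart, and after joining these the windows held 104 regions, of which 42 were lost (40.4%, against 30.1%) and 10 gained (9.62%, against 24.6%). Of the 64 joined regions open in MEF 65.6% were lost, against 67.6% over the genome. Loss of open regions in the windows as a whole was thus near the background of all regions. Of the 49 regions open in MEF at a member's start site 36 were lost (73.5%, 59.7 to 83.8%), against 26.6% of the 13019 at start sites of protein-coding genes. Away from the members' start sites 62 of 71 were lost (87.3%, 77.6 to 93.2%). With sub-peaks joined, the start-site share was 59.4% (42.3 to 74.5%, 19 of 32), against 15.4% of 11194. These start-site backgrounds were not matched to the members in peak height.

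**Figure D5:**
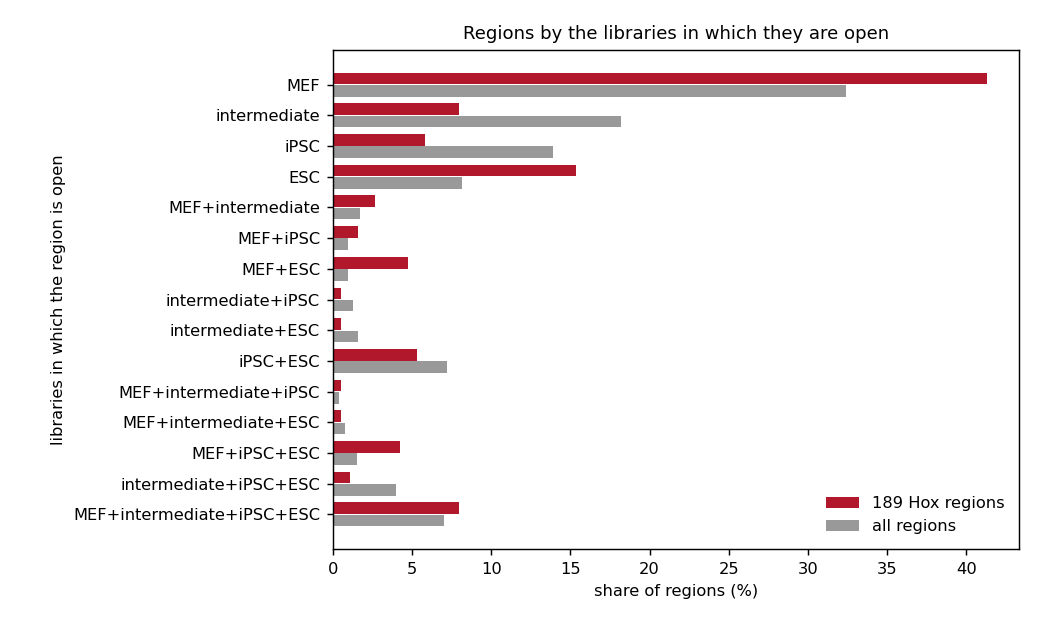
Share of regions (%) by the set of libraries in which they are open, for the 189 regions of the Hox windows and for all 256632 regions. Regions open in MEF alone (41.3% against 32.4%) and ESC alone (15.3% against 8.13%) take a greater share in the windows. Those open in the intermediate alone (7.94% against 18.2%) or iPSC alone (5.82% against 13.9%) take a smaller one. With sub-peaks joined (not drawn), MEF alone made up 24.0% of window regions, against 25.3% of all regions, so its greater share did not hold. ESC alone then made up 12.5%, against 6.98%.

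Of the regions open in the intermediate, most were open in MEF too: 22 of 41 (53.7%, 38.7 to 67.9%), against 28.3% over the genome. Of the 12 window regions that both pluripotent lines had open and MEF closed, 2 were open in the intermediate (16.7%, 4.70 to 44.8%, against 35.8% of 28782 such regions). These are the Hoxd1 start site, chr2:74762401-74763940, and a region between Hoxc13 and Hoxc12, chr15:102931291-102932460, with heights of none, 40, 100 and 42. Of the 83 open in MEF and in neither pluripotent line, 5 were open in the intermediate (6.02%, against 5.11%). Of 23 open in MEF, iPSC and ESC, 15 were open in the intermediate (65.2%, 44.9 to 81.2%), against 82.5% of 21889, which is just above the interval. Of the 75 open in ESC 25.3% (16.9 to 36.2%) were open in the intermediate, against 43.0% over the genome.

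Single regions show what lies behind these counts, and in each cluster the tallest is named by its greatest height in any library. In Hoxa a region within the body of Hoxa3, chr6:52171841-52173301, was open throughout, with heights of 119, 85, 60 and 102 in MEF, the intermediate, iPSC and ESC. The tallest region open throughout in Hoxb was the Hoxb9 start, chr11:96270671-96272980. In Hoxc it was the Hoxc13 start, chr15:102920031-102922510, and in Hoxd the Hoxd13 start, chr2:74666921-74668881, by its height of 141 in iPSC. Another region open throughout, within Hoxd3 at chr2:74715461-74716500, had 68, 77, 88 and 70 and was taller in MEF and the intermediate. The tallest lost regions lay at Hoxa5, chr6:52203241-52205120, within Hoxb3, chr11:96311471-96312281 (71 in MEF, 44 in ESC), at Hoxc6, chr15:102997831-102998401 (40 in MEF alone), and 12.5 kb from Hoxd1, chr2:74749121-74750470 (30 in MEF, 59 in iPSC, 33 in ESC). By MEF height alone the lost Hoxd region at Hoxd10, chr2:74691301-74692340 (53), was taller. Hoxc6 was both at a lost region and open throughout, since a second region 0.475 kb from its start, chr15:102998701-103001090, held peaks in all libraries. Among gained regions, chr6:52268831-52269550 lay 7.95 kb beyond Hoxa13 (51, in the intermediate alone) and chr11:96366391-96367120 within Hoxb1 (48). Regions of the intermediate alone included chr15:103041341-103041991, 6.95 kb from Hoxc4 (48), and chr2:74712591-74712830 within Hoxd3 (12). The 15 regions open in all 4 libraries had median heights of 56, 49, 60 and 66, below the 87, 83, 95 and 92 of all 18048 such regions.

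The partners of HOX proteins did not share the closed state. All 9 PBX, MEIS and PKNOX genes, which bind DNA with HOX proteins, were open in every library. Of 11 regulators upstream of Hox genes, among them retinoic acid receptors and CDX factors, 6 were open in MEF, 8 in the intermediate, 10 in ESC and 11 in iPSC. Cdx2 (none, 27, 30 and 35) and Cyp26a1, which breaks down retinoic acid (none, 28, 36 and 35), were gained and none was lost. Of the 46 other homeobox genes 8 were lost (Alx4, Dlx3, Dlx4, Pdx1, Pitx1, Prrx1, Prrx2 and Six3).

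Markers of the labelled cell types were read in the same way. All 10 fibroblast markers were open in MEF, 3 in the intermediate, 7 in ESC and 5 in iPSC. Of 10 pluripotency markers 2, 6, 10 and 9 were open in MEF, the intermediate, iPSC and ESC, and of 5 neural markers 1, 5, 5 and 5. Pou5f1, which encodes Oct4, had a peak in iPSC alone. Of 4 myeloid markers 3, 2, 2 and 2 were open and of 4 endothelial markers 1, 0, 2 and 1. Fibroblast markers thus moved with the Hox members lost in the intermediate, and their part in the result was not tested.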

How the data were processed

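ATAC-seq of MEF, the intermediate, iPSC and ESC (1 library each) was made, per the labels, from 50000 cells transposed for 30 min at 37 °C and amplified for 12 cycles. Bowtie2, Picard, CASAVA 1.8.2, MACS 1.4.2-1 and the build mm10 are listed in the submitters' processing notes, without roles or parameters. Per the file headers, the authors deposited 1 list of peaks for each library, giving start, end, height and summit. The height is an unscaled signal with a minimum of 5, used where the design had assumed a score. Over 91% of close neighbouring peaks were 10 bp apart, so stretches were divided into sub-peaks upstream, which raises counts of regions.

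Here, Python 3.11.15 with pandas 2.3.3 and numpy 2.4.6 compared peaks of the autosomes and X with RefSeq genes of GRCm38.p6. Start sites came from the RefSeq promoter table for 22 members. For the other 16 the 5′ gene end was used, with the strand of the cluster. Genes of the other lists without a start site in that table were read at both gene ends, so their peaks need not lie at the start site. The background was 17274 protein-coding genes with a start site in that table. Peaks sharing at least 1 bp were merged into regions, and functions were tested on simulated data. The members and lists were chosen with earlier results of these data known. All 38 members are named. Regions named are the tallest per cluster among those lost, gained, open in all 4 libraries or in the intermediate alone, and others named beside them (the second region at Hoxc6, those at Hoxd10 and within Hoxd3) were chosen after seeing the values. Promoters shown are those of gained members, the tallest lost member and the best member open in all 4 libraries per cluster, where the table holds them. Some items are not reported here. Alternatives varied the start-site window, peak height, joining, width, list length, overlap and windows.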

Additional observations from a re-analysis of the deposited data

How the results depend on the processing

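The 27 results were recomputed under those of 14 settings that bear on each, giving 228 values. Of these 188 kept within a tolerance, 37 moved beyond it and 3 changed sign. The tolerance was 1.5 times the value, and for differences between posterior and anterior members their wide interval. Within it these differences ranged from 17.6 to 44.6 points in MEF, -32.1 to -1.70 in the intermediate, 17.0 to 54.5 in iPSC and 22.2 to 60.7 in ESC. Restricting to the 22 members in the promoter table, a setting chosen after seeing the data, left 15, 10, 8 and 14 open members in MEF, the intermediate, iPSC and ESC and 9 lost. A start-site window of 250 bp left 11 open members in the intermediate and 2 gained. It gave 15 lost, with Hoxb7 and Hoxc6 added and Hoxc9 no longer among them. It turned the difference between posterior and anterior members in the intermediate from -13.4 to 8.93 percentage points. With either gene end as start site 2 members were gained. With the summit required within 1 kb, 0 members were lost in Hoxc. With the taller 50% of each list, 10 members were open in iPSC and 3 were lost in Hoxb, peaks covered 39.8, 18.4, 20.6 and 33.9 kb, 48 regions were lost, 11 gained, 36 open in MEF alone and 13 in ESC alone. The coverage difference (posterior minus anterior) was then -2.51 points in the intermediate and changed sign to -0.482 in iPSC. Joining peaks at most 10 bp apart gave 42 lost and 10 gained regions, 25 open in MEF alone and 13 in ESC alone. Peaks set to 500 bp gave 51, 11, 32 and 14, with coverage differences of 1.49 points in iPSC and, with the sign changed, -0.148 in ESC. Counting gene bodies only gave 49.5, 19.03, 18.99 and 32.4 kb covered, 10 regions gained and 17 open in ESC alone. With groups 1 to 8 set against 9 to 13 the coverage difference was 2.09 points in iPSC and 2.53 in ESC. The causes were not tested. Lists of equal length, heights of at least 10 and no flank kept results within the tolerance. So did a window of 2.5 kb, with 15 members lost (Hoxd12 added), 6 gained (Hoxb8 and Hoxd4 added) and a difference of 25.9 points in iPSC. An overlap of 50% of the shorter peak counted single peaks and not merged regions. It gave 144 of 185 MEF peaks lost and 28 of 77 peaks of the intermediate gained. Its 5 values, all among the 188, were set against counts of regions, so they cannot show whether those counts held. No paired analysis was possible because each group has 1 library, and no library could be left out for the same reason. Depth is unknown, so a missing peak cannot be told from a shallow library.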

Other observations

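Genes and microRNAs that lie next to or inside the clusters were matched for 20 of 21 symbols, and 9 were open in MEF and 10 in the intermediate, against 12 of them in either pluripotent line, with 1 lost and 2 gained. Several flanking genes outside the homeobox family, Mtx2, Skap2, Hibadh, Lnpk, Smug1 and Calcoco1, were open in all 4 libraries. Evx1, a homeobox gene beyond Hoxa13, had heights of none, 17, 18 and 34 (MEF, intermediate, iPSC, ESC), and Skap1, beyond Hoxb1, of none, 35, 50 and 60. Evx2, beside Hoxd13, had no peak at its start site in any library. Hotair, a long noncoding RNA transcribed within Hoxc, was read at both gene ends. It had a peak of 36 near the end at chr15:102944062 in both pluripotent lines and none in MEF or the intermediate. No library had a listed peak within 1 kb of the other end, chr15:102947946. With no strand given, neither end was taken as its start site. Hottip, beside Hoxa13, was closed throughout. Halr1 was open in ESC alone (29), and Ttll6 nowhere.

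The clusters also encode microRNAs, of which the 4 below fall into 2 families by seed (bases 2 to 8, in capitals), with mature sequences from RefSeq (GRCm38.p6).
mmu-miR-10a-5p (Hoxb): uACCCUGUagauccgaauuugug
mmu-miR-10b-5p (Hoxd): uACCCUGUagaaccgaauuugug
mmu-miR-196a-5p (Hoxb and Hoxc): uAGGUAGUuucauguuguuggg
mmu-miR-196b-5p (Hoxa): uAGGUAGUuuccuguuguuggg
Mir10a had a peak within 1 kb of its hairpin in ESC alone (27), and Mir10b, Mir196a-1 and Mir196a-2 had none. Mir196b, between Hoxa9 and Hoxa10, had 35 in MEF and 43 in iPSC and none in the intermediate or ESC. Mir615 lies in the body of Hoxc5 and shares its start-site peaks (39, 35 and 32 in MEF, the intermediate and iPSC).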
